A study of Mus musculus with 3 samples.

Results

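The genes described here encode the Wnt ligands, their Frizzled receptors and the secreted proteins that block them, as measured in mouse muscle stem cells (MuSC, satellite cells) with and without Oncostatin M (OSM), a cytokine of the interleukin-6 family. They were chosen by name: all genes whose symbol in the array annotation is Wnt, Fzd, Sfrp or Dkk followed by a digit, together with Frzb and Wif1, and with at least 1 probe set assigned to that gene alone. The rule gave 40 of 18193 genes, which were 19 Wnt genes, 10 Frizzled receptor genes, 5 genes of secreted Frizzled-related proteins (Sfrp1, Sfrp2, Sfrp4, Sfrp5 and Frzb), 4 Dkk genes, Wif1 and Fzd10os, a non-coding RNA gene beside Fzd10 whose symbol fits the pattern and which encodes no receptor.

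RNA was hybridised to 3 Affymetrix MOE_430_2 arrays, 1 for each condition. In +OSM MuSC, sorted cells had been kept for 3 days in 10% fetal bovine serum (FBS) with 100 ng/mL OSM. In −OSM MuSC the culture was the same without OSM, and fresh MuSC were not cultured. All cells came from skeletal muscle of wild-type C57BL/6 mice of 8 weeks and were sorted as CD34+ α7 integrin+ cells after depletion of cells carrying CD45, CD11b, CD31 or Sca1. The sources used here do not state whether animals were pooled. With 1 array a condition there was no replicate, so no SD, interval or test between conditions could be had, and each ratio below compares a pair of arrays and not the conditions in general.

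Wnt proteins are lipid-modified secreted ligands that bind Frizzled receptors at the cell surface. Together with the co-receptors Lrp5 and Lrp6 this stabilises β-catenin, which enters the nucleus and acts with TCF/LEF factors, while with other co-receptors it feeds into planar cell polarity and calcium signalling. Secreted Frizzled-related proteins and Wif1 bind Wnt ligands outside the cell, and Dkk proteins bind Lrp5 and Lrp6. In skeletal muscle, Wnt7a acting on Fzd7 is known for its effect on the expansion of satellite cells, and β-catenin signalling is known for its part in myogenic differentiation.

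Promoters are shown for the member furthest apart between +OSM MuSC and −OSM MuSC (Fzd4), for the one with the greatest excess in −OSM MuSC over fresh MuSC (Wnt9a), and for the members that differed at least 2-fold between any conditions and held 1 of the motifs searched (Wnt11 and Frzb). The sequences are from RefSeq (GRCm38.p6), run 5′ to 3′ on the strand of the gene and carry the motifs in capitals. Each spans from 250 bases before to 50 bases after the start site of its promoter entry. For Wnt9a and Wnt11 this site lies downstream of the start of the gene in the RefSeq gene table.
Fzd4 (chr7:89404116-89404415, plus strand): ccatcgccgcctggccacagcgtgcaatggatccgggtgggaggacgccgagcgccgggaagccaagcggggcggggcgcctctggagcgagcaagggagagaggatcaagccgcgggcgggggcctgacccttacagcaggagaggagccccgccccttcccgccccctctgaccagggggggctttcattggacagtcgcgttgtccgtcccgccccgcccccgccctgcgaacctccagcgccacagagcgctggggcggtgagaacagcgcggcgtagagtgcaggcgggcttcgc
Wnt9a (chr11:59306680-59306979, plus strand): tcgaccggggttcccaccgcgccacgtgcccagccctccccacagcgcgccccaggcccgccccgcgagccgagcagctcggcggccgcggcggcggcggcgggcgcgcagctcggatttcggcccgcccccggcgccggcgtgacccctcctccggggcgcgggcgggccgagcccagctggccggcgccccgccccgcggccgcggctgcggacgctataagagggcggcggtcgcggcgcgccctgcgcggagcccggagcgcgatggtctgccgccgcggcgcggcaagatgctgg
Wnt11 (chr7:98834862-98835161, plus strand): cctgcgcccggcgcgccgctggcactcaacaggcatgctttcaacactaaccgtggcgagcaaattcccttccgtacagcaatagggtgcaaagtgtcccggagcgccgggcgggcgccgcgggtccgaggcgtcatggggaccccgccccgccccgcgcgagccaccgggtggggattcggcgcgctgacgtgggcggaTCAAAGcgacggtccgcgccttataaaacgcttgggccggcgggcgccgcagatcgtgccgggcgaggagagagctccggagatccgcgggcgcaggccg
Frzb (chr2:80447347-80447646, minus strand): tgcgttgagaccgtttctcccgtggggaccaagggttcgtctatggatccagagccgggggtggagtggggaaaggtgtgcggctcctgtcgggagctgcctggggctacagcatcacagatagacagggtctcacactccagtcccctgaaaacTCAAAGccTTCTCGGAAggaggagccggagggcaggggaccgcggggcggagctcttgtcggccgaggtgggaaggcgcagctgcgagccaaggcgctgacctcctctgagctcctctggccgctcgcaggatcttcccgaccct
Capitals mark TTCNNNGAA, a core letter pattern of sites of STAT factors, through which OSM signals, and CTTTGA on either strand, a core pattern of TCF/LEF sites. The Frzb promoter held both, the TCF/LEF pattern beginning at position −95 and the STAT pattern at −87 counted from the start site of the entry, without overlap. The Wnt11 promoter held the TCF/LEF pattern at −50. A second annotated Wnt11 promoter held neither. Those of Fzd4 and Wnt9a held neither pattern in this window and had a GC content of 72.7% for Fzd4 and 83.3% for Wnt9a. Of the 40 genes, 27 matched a promoter entry. The STAT pattern was in 2 of these 27 genes (Frzb and Wnt5b), and it was in 8.3% of all 32851 promoters of the same length. The TCF/LEF pattern was in 5 of the 27 (Dkk1, Frzb, Fzd1, Wnt11 and Wnt5b), beside 16% of all promoters. A match of letters is a description and not a bound site.

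Values are MAS5 signals, the array software's background-corrected brightness of a probe set in linear units, with each array scaled by the authors to a common trimmed mean (198.7 in +OSM MuSC, 198.5 in −OSM MuSC and 198.4 in fresh MuSC). The arrays still differed in shape: the median signal was 32 in +OSM MuSC, 36 in −OSM MuSC and 53 in fresh MuSC, and 45.9% of probe sets in +OSM MuSC, 47.3% in −OSM MuSC and 56.8% in fresh MuSC lay above 40, the median of all signals. This value of 40 served as the floor, and lower signals were raised to it before a ratio was taken. β-Actin probes near the 3′ end of the transcript gave more signal than those near its 5′ end, by a ratio (a measure of how whole the RNA and its amplified copies were) of 1.41 in +OSM MuSC, 1.4 in −OSM MuSC and 2.35 in fresh MuSC, and its part in the differences from fresh MuSC was not tested. Of 10 satellite cell markers, 8 lay above the floor in +OSM MuSC, 8 in −OSM MuSC and 10 in fresh MuSC, among them Pax7 (signal of 431 in +OSM MuSC, 282 in −OSM MuSC and 4006 in fresh MuSC).

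Of the 40 members, 28 (70%) had a signal above the floor on at least 1 array, beside 70.8% of all genes. There were 15 members above it on all 3 arrays, 5 on 2 arrays, 5 in fresh MuSC alone, 2 in −OSM MuSC alone and 1 in +OSM MuSC alone. All receptors and Frizzled-related inhibitors passed the floor on at least 1 array, 10 of 10 Frizzled genes and 5 of 5 Sfrp and Frzb genes. On all 3 arrays, 8 of the Frizzled genes and 2 of the Sfrp and Frzb genes passed. The floor ranks a signal against all others and is not a call of presence. Of the ligands 11 of 19 passed on at least 1 array, and of the Dkk genes 1 of 4. The other 12 members, Wnt2, Wnt2b, Wnt3, Wnt3a, Wnt5b, Wnt8b, Wnt10b, Wnt16, Dkk1, Dkk2, Dkk4 and Wif1, had signals between 1 and 39 on all 3 arrays and enter no ratio. A member enters a ratio below only if its signal passed the floor on 1 or both of the arrays set against each other.

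**Figure D1:**
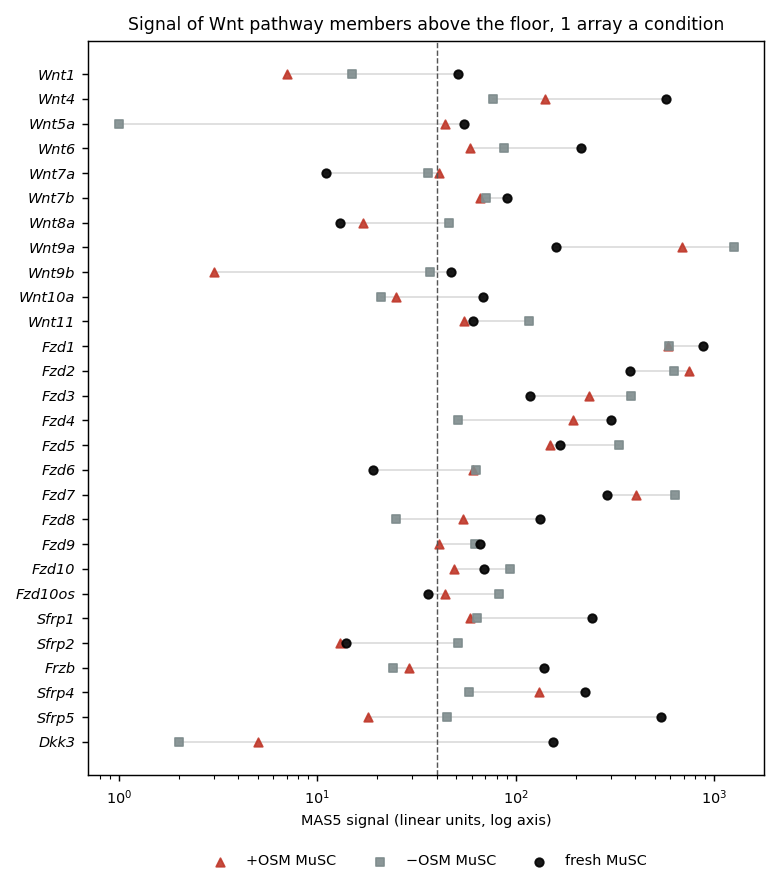
MAS5 signal (linear units, log axis) of the 28 members above the floor of 40 (dashed line) on at least 1 array, with 1 point for each array and no error bars because there was 1 array a condition. Dkk3, Frzb and Sfrp5 have their fresh MuSC points well to the right of both culture points, and Wnt9a has its fresh MuSC point to the left of both.

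Few members differed between +OSM MuSC and −OSM MuSC, the comparison that asks what OSM did in culture. Fzd4 and Sfrp4 were at least 2-fold higher in +OSM MuSC, and Wnt11 and Fzd5 were at least 2-fold lower. That was 2 higher (8.7%) and 2 lower (8.7%) of 23 members measured, beside 6.07% of 11271 genes higher and 4.39% lower. The other 19 lay within 2-fold. The median log2 ratio of +OSM over −OSM was −0.17 over the 23 members and −0.01 over all genes. Markers of other cell types also differed between the cultures. Of the fibroblast or fibro-adipogenic markers, 3 of 7 measured were at least 2-fold higher in +OSM MuSC and none was lower: Dcn had 373 in +OSM MuSC and 32 in −OSM MuSC (at least 9.32-fold), Col1a1 164 in +OSM MuSC and 53 in −OSM MuSC, and Col1a2 2123 in +OSM MuSC and 925 in −OSM MuSC. Of the smooth muscle and pericyte markers, 2 of 5 were higher and none lower, with Pdgfrb at 738 in +OSM MuSC and 139 in −OSM MuSC and Kcnj8 at 83 in +OSM MuSC and 23 in −OSM MuSC. Satellite cell markers were higher in 2 of 8 and lower in none (Myf5 at 1855 in +OSM MuSC and 561 in −OSM MuSC, Fgfr4 at 777 in +OSM MuSC and 370 in −OSM MuSC), and of the 6 myogenic markers 2 were lower and none higher. The part of these cells in the members' differences with OSM was not tested.

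Differences from fresh MuSC were more frequent. In −OSM MuSC over fresh MuSC, the comparison of what 3 days of culture did, 5 of 27 members measured (18.5%) were at least 2-fold higher and 9 (33.3%) at least 2-fold lower, beside 15% of 12755 genes higher and 20.4% lower. Higher were Wnt9a, Fzd3, Fzd5, Fzd7 and Fzd10os. Lower were Wnt4, Wnt6, Fzd4, Fzd8, Sfrp1, Sfrp4, Sfrp5, Frzb and Dkk3. In +OSM MuSC over fresh MuSC, 1 of 26 members (3.85%) was higher (Wnt9a) and 7 (26.9%) lower (Wnt4, Wnt6, Fzd8, Sfrp1, Sfrp5, Frzb and Dkk3), beside 13.8% of 12483 genes higher and 17.2% lower. A member that passed the floor on 1 array alone could only differ towards that array. Of the 27 members in −OSM MuSC over fresh MuSC this held for 4 through −OSM MuSC and 7 through fresh MuSC (among them Fzd8, Frzb and Dkk3), and of the 26 in +OSM MuSC over fresh MuSC for 3 through +OSM MuSC and 6 through fresh MuSC (among them Frzb, Sfrp5 and Dkk3). Each pair of these comparisons shares an array, so their ratios are not independent of each other: a high or low signal in −OSM MuSC, for instance, enters both the comparison with +OSM MuSC and that with fresh MuSC with opposite sign. In bulk RNA of this kind, fewer cells that express a gene and less of its RNA per cell cannot be told apart.

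The direction of the members' median ratio to fresh MuSC depended on how the arrays were scaled. Its log2 value in −OSM MuSC over fresh MuSC was −0.34 as deposited, 0.13 with the arrays set to a common median and 0.05 after quantile normalization, and in +OSM MuSC over fresh MuSC it was −0.47, 0.23 and 0.08 in the same order of settings. The median over all genes moved too, with values of −0.14, 0.37 and 0.10 for −OSM MuSC over fresh MuSC and −0.14, 0.58 and 0.07 for +OSM MuSC over fresh MuSC. For +OSM MuSC over −OSM MuSC it was −0.01, 0.15 and −0.03. Of all genes at least 2-fold apart, the share that was higher was 42.4% as deposited, 70.2% with a common median and 53.4% after quantile normalization for −OSM MuSC over fresh MuSC, 44.5%, 80.4% and 54.8% for +OSM MuSC over fresh MuSC, and 58%, 72% and 54.2% for +OSM MuSC over −OSM MuSC. Among the members in −OSM MuSC over fresh MuSC, 5 were higher and 9 lower as deposited, 8 and 8 with a common median, and 7 and 8 after quantile normalization. In +OSM MuSC over fresh MuSC these counts were 1 and 7, 4 and 6, and 3 and 6, and in +OSM MuSC over −OSM MuSC they were 2 and 2, 3 and 0, and 2 and 2.

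Under all 3 scalings Wnt4, Fzd4, Fzd8, Sfrp1, Sfrp4, Sfrp5, Frzb and Dkk3 were at least 2-fold lower in −OSM MuSC than in fresh MuSC, and Wnt9a, Fzd3, Fzd5, Fzd7 and Fzd10os at least 2-fold higher. Wnt6 was lower as deposited only, with a log2 ratio of −0.73 with a common median and −0.94 after quantile normalization. When the mean of all probe sets of a gene was used, the ratios of −OSM MuSC over fresh MuSC fell within 2-fold for Wnt9a, Fzd7, Fzd8, Fzd10os and Frzb, with log2 values of 0.07 for Wnt9a, 0.33 for Fzd7, −0.98 for Fzd8, 0.52 for Fzd10os and −0.78 for Frzb. With the floor raised to the 75th percentile of all signals, 183, those of Wnt6, Fzd4, Fzd5, Sfrp1 and Sfrp4 did, at −0.22 for Wnt6, −0.73 for Fzd4, 0.86 for Fzd5, −0.40 for Sfrp1 and −0.29 for Sfrp4.

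**Figure D2:**
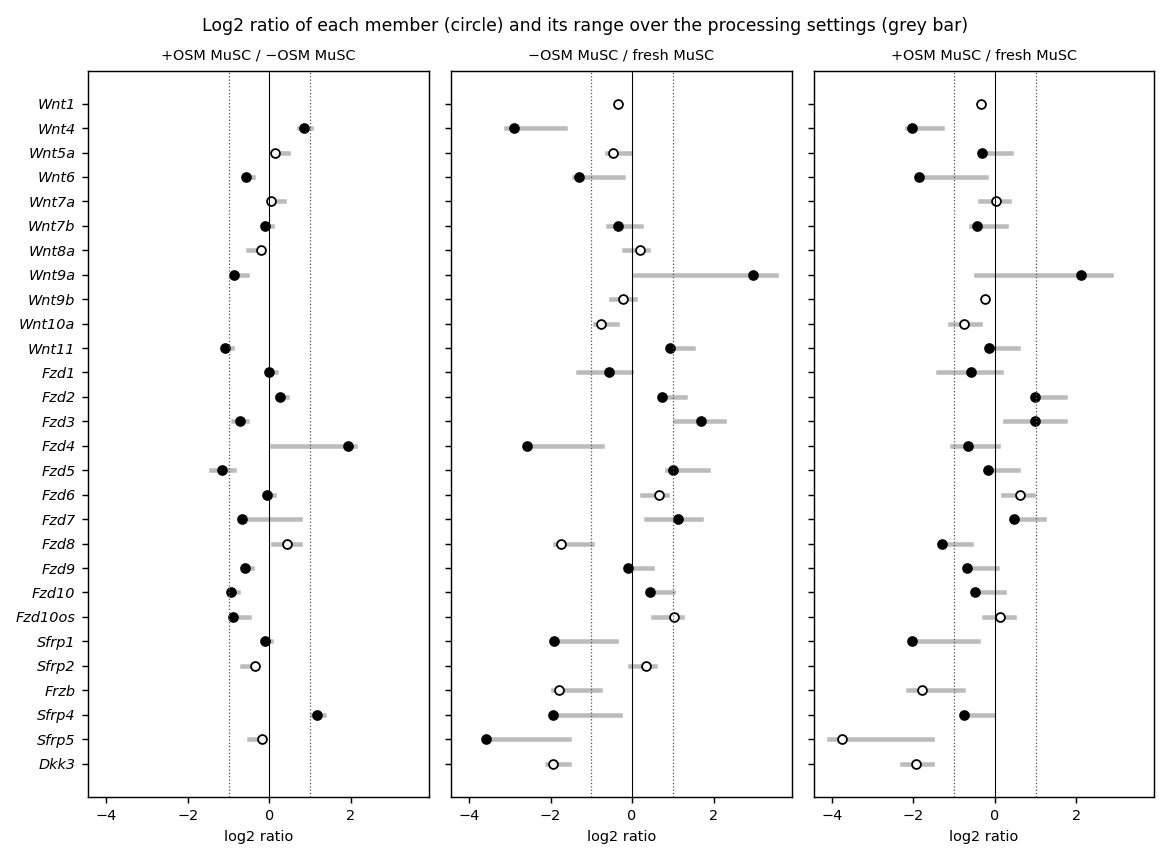
Log2 ratio of each member above the floor in the 3 comparisons (circles, open where 1 of the 2 signals was raised to the floor so that the ratio is a bound) with its range over the alternative scalings, floors and probe set rules (grey bars), and dotted lines at 2-fold. Fzd4 stands furthest right in the first panel, and Sfrp5 stands furthest left in the middle and right panels.

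Among the ligands, Wnt4 and Wnt9a had the widest ratios to fresh MuSC, in opposite directions. Wnt4, a ligand known from kidney and ovary development, had a signal of 140 in +OSM MuSC, 77 in −OSM MuSC and 573 in fresh MuSC. Fresh MuSC were thus the highest and −OSM MuSC the lowest, with Wnt4 7.44-fold lower in −OSM MuSC and 4.09-fold lower in +OSM MuSC than in fresh MuSC. The 1.82-fold excess in +OSM MuSC over −OSM MuSC lay within 2-fold as deposited and passed it with a common median, at a log2 ratio of 1.03. Its second probe set gave 61 in +OSM MuSC, 30 in −OSM MuSC and 295 in fresh MuSC, the same order.

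Wnt9a, a ligand known from joint formation, had a signal of 690 in +OSM MuSC, 1251 in −OSM MuSC and 159 in fresh MuSC. Both cultures lay above fresh MuSC, 7.87-fold in −OSM MuSC and 4.34-fold in +OSM MuSC, and +OSM MuSC lay 1.81-fold below −OSM MuSC. The pattern rests on 1 probe set: the other Wnt9a probe set gave 6 in +OSM MuSC, 7 in −OSM MuSC and 50 in fresh MuSC, which is the opposite order near the floor. With the mean of both in place of the brighter one, the log2 ratio to fresh MuSC was 0.07 in −OSM MuSC and −0.47 in +OSM MuSC.

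Wnt6, a ligand of epithelia that flank the developing somites, had signals of 59 in +OSM MuSC, 87 in −OSM MuSC and 213 in fresh MuSC. It was 3.61-fold lower in +OSM MuSC and 2.45-fold lower in −OSM MuSC than in fresh MuSC. Wnt11, a ligand of β-catenin-independent signalling in gastrulation, was brightest in −OSM MuSC, with 55 in +OSM MuSC, 117 in −OSM MuSC and 61 in fresh MuSC. It was 2.13-fold lower in +OSM MuSC than in −OSM MuSC, and with the arrays set to a common median the log2 ratio was −0.92, within 2-fold. Wnt11 was 1.92-fold higher in −OSM MuSC than in fresh MuSC, just short of 2-fold.

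The remaining 7 ligands gave signals near the floor, and as deposited none differed by 2-fold in any comparison. Wnt7b had signals of 66 in +OSM MuSC, 71 in −OSM MuSC and 90 in fresh MuSC, and was the only one of the 7 above the floor on all 3 arrays. Wnt5a, the prototype of β-catenin-independent ligands, gave 44 in +OSM MuSC, 1 in −OSM MuSC and 55 in fresh MuSC, so that +OSM MuSC lay at least 1.1-fold above −OSM MuSC. Wnt7a, whose protein enlarges the satellite cell pool through Fzd7, was just above the floor in +OSM MuSC alone, with 41 in +OSM MuSC, 36 in −OSM MuSC and 11 in fresh MuSC. With single arrays, values this close to the floor give no order of the conditions.

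Ligands above the floor in fresh MuSC alone were Wnt1, Wnt9b and Wnt10a. Wnt1, which like Wnt3a activates β-catenin in the dorsal neural tube, had 7 in +OSM MuSC, 15 in −OSM MuSC and 51 in fresh MuSC. Wnt9b, an inducer of kidney tubules, had 3 in +OSM MuSC, 37 in −OSM MuSC and 47 in fresh MuSC. Wnt10a, a ligand of skin and tooth development, had 25 in +OSM MuSC, 21 in −OSM MuSC and 68 in fresh MuSC. Their ratios to fresh MuSC are bounds, of which the greatest was at least 1.7-fold for Wnt10a in either culture. Wnt8a, a ligand of the early embryo, was above the floor in −OSM MuSC alone, with 17 in +OSM MuSC, 46 in −OSM MuSC and 13 in fresh MuSC.

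As a family, 1 of 10 ligands measured was at least 2-fold higher and 2 were lower in −OSM MuSC than in fresh MuSC. The shares over all genes were 15% higher and 20.4% lower. The median log2 ratio of the ligands in that comparison was −0.35 as deposited and 0.04 under both other scalings, so its direction turned with the scaling. It turned for +OSM MuSC over fresh MuSC too, from −0.34 as deposited to 0.29 with a common median and 0.25 after quantile normalization. In the RefSeq gene table several ligand genes are neighbours: Wnt6 and Wnt10a on chromosome 1, Wnt3a and Wnt9a on chromosome 11, Wnt9b and Wnt3 on chromosome 11, and Wnt10b and Wnt1 on chromosome 15. Wnt9a was thus above the floor beside a neighbour that was under it on all 3 arrays.

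The Frizzled receptors, the seven-pass membrane proteins that bind Wnt ligands, were above the floor in 10 of 10 cases in +OSM MuSC, 9 in −OSM MuSC and 9 in fresh MuSC. They did not move as a block: in −OSM MuSC, Fzd3, Fzd5 and Fzd7 were at least 2-fold higher than in fresh MuSC and Fzd4 and Fzd8 at least 2-fold lower. That was 3 of 10 receptors higher and 2 lower, beside 15% of all genes higher and 20.4% lower. The median log2 ratio of the family was 0.55 in that comparison as deposited, beside −0.14 over all genes, and it stayed above 0 under both other scalings. In +OSM MuSC over fresh MuSC only Fzd8 passed 2-fold as deposited, and the family median of −0.33 turned to 0.40 with a common median and to 0.11 after quantile normalization.

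Fzd4, which binds Wnt ligands and also Norrin in retinal vessels, was the member furthest apart between the cultures. Its signal was 193 in +OSM MuSC, 51 in −OSM MuSC and 303 in fresh MuSC. +OSM MuSC lay 3.78-fold above −OSM MuSC, at percentile 98.7 of all genes measured, and 1.57-fold below fresh MuSC, while −OSM MuSC lay 5.94-fold below fresh MuSC. A second Fzd4 probe set had 104 in +OSM MuSC, 37 in −OSM MuSC and 329 in fresh MuSC, the same order. On it +OSM MuSC lay 3.16-fold below fresh MuSC, and −OSM MuSC was under the floor, so that +OSM MuSC could only be higher. The remaining one, with 18 in +OSM MuSC, 10 in −OSM MuSC and 32 in fresh MuSC, was under the floor throughout. With the mean of all 3 the log2 ratio of +OSM MuSC over −OSM MuSC was 0.83, and that of +OSM MuSC over fresh MuSC was −1.05, past 2-fold. Fzd8, a receptor of β-catenin signalling with Lrp6, ran in the same order as Fzd4, with 54 in +OSM MuSC, 25 in −OSM MuSC and 133 in fresh MuSC. It was at least 3.32-fold lower in −OSM MuSC and 2.46-fold lower in +OSM MuSC than in fresh MuSC, and the second of these lay within 2-fold under both other scalings.

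Fzd3, Fzd5 and Fzd7 were brightest in −OSM MuSC. Fzd3, known from axon guidance and planar cell polarity, had signals of 233 in +OSM MuSC, 382 in −OSM MuSC and 118 in fresh MuSC, and was 3.24-fold higher in −OSM MuSC than in fresh MuSC. Fzd7, the receptor of Wnt7a on satellite cells, had 402 in +OSM MuSC, 636 in −OSM MuSC and 289 in fresh MuSC, a 2.2-fold excess of −OSM MuSC over fresh MuSC. Fzd5, a receptor known from eye development, had 148 in +OSM MuSC, 332 in −OSM MuSC and 166 in fresh MuSC, so that +OSM MuSC was 2.24-fold below −OSM MuSC and close to fresh MuSC. For Fzd5, −OSM MuSC lay exactly 2-fold above fresh MuSC, the member nearest inside the threshold. Against −OSM MuSC, +OSM MuSC was 1.64-fold lower for Fzd3 and 1.58-fold lower for Fzd7, both within 2-fold. Of the other 5 Fzd3 probe sets, 1 was 2.77-fold lower with OSM (78 in +OSM MuSC and 216 in −OSM MuSC), 1 was 1.95-fold lower (105 in +OSM MuSC and 205 in −OSM MuSC), 1 was 1.31-fold lower (86 in +OSM MuSC and 113 in −OSM MuSC) and the rest were under the floor. A second Fzd7 probe set was under the floor throughout, with 18 in +OSM MuSC, 4 in −OSM MuSC and 2 in fresh MuSC, and averaging both turned the log2 ratio of +OSM MuSC over −OSM MuSC to 0.75. For Fzd5, setting the arrays to a common median moved the log2 ratio of +OSM MuSC over −OSM MuSC to −0.996, just within 2-fold.

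Fzd1 and Fzd2, receptors that can act through β-catenin, were well above the floor on every array and within 2-fold in all comparisons as deposited. Fzd1 had 587 in +OSM MuSC, 591 in −OSM MuSC and 881 in fresh MuSC, and the cultures were 1.01-fold apart. Its second probe set was above the floor in fresh MuSC alone, with 22 in +OSM MuSC, 24 in −OSM MuSC and 102 in fresh MuSC, and the mean of both put the log2 ratio to fresh MuSC at −1.40 in +OSM MuSC and −1.33 in −OSM MuSC. Fzd2 had 749 in +OSM MuSC, 628 in −OSM MuSC and 377 in fresh MuSC. Its excess in +OSM MuSC over fresh MuSC was 1.99-fold, just outside the threshold, and passed it under both other scalings. The other 2 Fzd2 probe sets passed 2-fold in both comparisons with fresh MuSC. One had 498 in +OSM MuSC, 361 in −OSM MuSC and 123 in fresh MuSC, 4.05-fold higher in +OSM MuSC and 2.93-fold higher in −OSM MuSC than in fresh MuSC. The other had 420 in +OSM MuSC, 291 in −OSM MuSC and 128 in fresh MuSC, 3.28-fold higher in +OSM MuSC and 2.27-fold higher in −OSM MuSC. The mean of all 3 gave log2 ratios to fresh MuSC of 1.57 in +OSM MuSC and 1.16 in −OSM MuSC.

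Fzd6, Fzd9 and Fzd10 gave signals near the floor and were within 2-fold as deposited. Fzd6, which orients hairs of the skin through planar cell polarity, had 61 in +OSM MuSC, 63 in −OSM MuSC and 19 in fresh MuSC, while another of its probe sets gave 13 in +OSM MuSC, 25 in −OSM MuSC and 64 in fresh MuSC, so that its probe sets did not give 1 order. Fzd9 had 41 in +OSM MuSC, 62 in −OSM MuSC and 66 in fresh MuSC. Fzd10 had 49 in +OSM MuSC, 94 in −OSM MuSC and 69 in fresh MuSC. Its neighbour Fzd10os, the non-coding RNA, had 44 in +OSM MuSC, 82 in −OSM MuSC and 36 in fresh MuSC, at least 2.05-fold higher in −OSM MuSC than in fresh MuSC and within 2-fold when each array's own median was the floor or when both its probe sets were averaged. Both Fzd10 and Fzd10os were brightest in −OSM MuSC.

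The secreted Frizzled-related proteins, which carry a Frizzled-like domain and bind Wnt ligands, were mostly brightest in fresh MuSC. In −OSM MuSC, 4 of 5 were at least 2-fold lower than in fresh MuSC and none was higher, beside 20.4% of all genes lower and 15% higher, with a median log2 ratio of −1.92 as deposited, −1.38 with a common median and −1.59 after quantile normalization. In +OSM MuSC, 3 of 4 measured were lower than in fresh MuSC, beside 17.2% of all genes, with a median of −1.92 as deposited, −1.35 with a common median and −1.62 after quantile normalization. The median kept its direction under these 3 scalings. The all-gene median in both comparisons was −0.14 as deposited, and Frzb (in both) and Sfrp5 (in +OSM MuSC) entered through fresh MuSC alone, so they could only be lower.

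Sfrp5 had a signal of 18 in +OSM MuSC, 45 in −OSM MuSC and 536 in fresh MuSC. It was at least 13.4-fold lower in +OSM MuSC and 11.9-fold lower in −OSM MuSC than in fresh MuSC, the widest gaps of any member. Its second probe set gave 10 in +OSM MuSC, 8 in −OSM MuSC and 134 in fresh MuSC, with only fresh MuSC above the floor on it. Sfrp1 had 59 in +OSM MuSC, 64 in −OSM MuSC and 242 in fresh MuSC, with the cultures 4.1-fold (+OSM) and 3.78-fold (−OSM) lower than fresh MuSC and 1.08-fold apart from each other. Each of the 5 Sfrp1 probe sets was highest in fresh MuSC. Frzb, also known as sFRP3, had 29 in +OSM MuSC, 24 in −OSM MuSC and 139 in fresh MuSC, and was at least 3.47-fold lower in either culture. Frzb is the member whose promoter held both patterns shown above.

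Sfrp4 was the inhibitor that differed with OSM. Its signal was 131 in +OSM MuSC, 58 in −OSM MuSC and 223 in fresh MuSC. It was 2.26-fold higher in +OSM MuSC than in −OSM MuSC, at percentile 95.6 of all genes measured, 3.84-fold lower in −OSM MuSC than in fresh MuSC, and 1.7-fold lower in +OSM MuSC than in fresh MuSC. Sfrp4 has 1 probe set, so no second reading was at hand. Sfrp2 went its own way and was above the floor in −OSM MuSC alone, with 13 in +OSM MuSC, 51 in −OSM MuSC and 14 in fresh MuSC, and its ratios were all within 2-fold at the floor.

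Of the Dkk genes, Dkk3 alone was above the floor, and in fresh MuSC alone. Dkk3, a divergent member of a family otherwise known for blocking Lrp5 and Lrp6, had signals of 5 in +OSM MuSC, 2 in −OSM MuSC and 154 in fresh MuSC, at least 3.85-fold lower in either culture. Its second probe set gave 7 in +OSM MuSC, 6 in −OSM MuSC and 91 in fresh MuSC. Taking the 10 inhibitor genes together (Sfrp, Frzb, Dkk and Wif1), 6 were above the floor on some array. In −OSM MuSC none was at least 2-fold higher than in fresh MuSC and 5 were lower, in +OSM MuSC none was higher and 4 were lower, and in +OSM MuSC against −OSM MuSC 1 was higher and none lower. The share of all genes lower than in fresh MuSC was 20.4% in −OSM MuSC and 17.2% in +OSM MuSC, and Frzb and Dkk3 in either culture and Sfrp5 in +OSM MuSC could only count as lower.

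Many markers of other cell types were also higher in fresh MuSC, and their part in the members' excess there was not tested. Of 9 fibroblast or fibro-adipogenic markers with a probe set, 7 lay above the floor in +OSM MuSC, 4 in −OSM MuSC and 9 in fresh MuSC. Their summed signal was 4938 in +OSM MuSC, 3027 in −OSM MuSC and 45576 in fresh MuSC, with Dcn at 373 in +OSM MuSC, 32 in −OSM MuSC and 12179 in fresh MuSC and the defining marker Pdgfra at 43 in +OSM MuSC, 17 in −OSM MuSC and 140 in fresh MuSC. The 6 tenocyte markers summed to 669 in +OSM MuSC, 545 in −OSM MuSC and 12297 in fresh MuSC, and 2 in +OSM MuSC, 2 in −OSM MuSC and 6 in fresh MuSC passed the floor. For the 4 Schwann cell markers the sum was 648 in +OSM MuSC, 370 in −OSM MuSC and 5082 in fresh MuSC, and 4 in +OSM MuSC, 2 in −OSM MuSC and 4 in fresh MuSC passed. The 6 smooth muscle and pericyte markers gave 1475 in +OSM MuSC, 899 in −OSM MuSC and 6161 in fresh MuSC, and 5 in +OSM MuSC, 3 in −OSM MuSC and 6 in fresh MuSC passed. The sort depleted cells carrying CD31, CD45, CD11b or Sca1, the last of which marks fibro-adipogenic cells, and the gene of Sca1 was not analysed here. The 7 endothelial markers summed to 122 in +OSM MuSC, 146 in −OSM MuSC and 1289 in fresh MuSC, none passing in +OSM MuSC, 1 in −OSM MuSC and 5 in fresh MuSC, with Tek at 25 in +OSM MuSC, 42 in −OSM MuSC and 791 in fresh MuSC and Cdh5 at 22 in +OSM MuSC, 6 in −OSM MuSC and 268 in fresh MuSC, while the defining marker Pecam1 (CD31) was at 2 in +OSM MuSC, 4 in −OSM MuSC and 4 in fresh MuSC. The 7 leukocyte markers summed to 210 in +OSM MuSC, 199 in −OSM MuSC and 1362 in fresh MuSC, with 1 passing in +OSM MuSC, 2 in −OSM MuSC and 3 in fresh MuSC, with Lyz2 at 13 in +OSM MuSC, 13 in −OSM MuSC and 1204 in fresh MuSC, while Ptprc (CD45) was at 7 in +OSM MuSC, 2 in −OSM MuSC and 1 in fresh MuSC and Itgam (CD11b) at 1 in +OSM MuSC, 26 in −OSM MuSC and 23 in fresh MuSC. The satellite cell markers themselves summed to 6978 in +OSM MuSC, 5043 in −OSM MuSC and 40771 in fresh MuSC, and the 6 myogenic markers to 51710 in +OSM MuSC, 82668 in −OSM MuSC and 8969 in fresh MuSC. The summed signals of the satellite cell list and of the fibroblast, tenocyte, Schwann cell, pericyte, endothelial and leukocyte lists were thus all highest in fresh MuSC, where Wnt4, Fzd4, Fzd8, Sfrp1, Sfrp4, Sfrp5, Frzb and Dkk3 were highest too, and between fresh and cultured cells these cannot be told apart. A sum follows its brightest genes, and some markers of these lists were at least 2-fold higher in culture than in fresh MuSC. Itga7 of the satellite cell list had 1238 in +OSM MuSC, 1808 in −OSM MuSC and 499 in fresh MuSC. Scx of the tenocyte list had 104 in +OSM MuSC, 327 in −OSM MuSC and 48 in fresh MuSC. Csf1r of the leukocyte list was higher in +OSM MuSC alone, with 149 there, 62 in −OSM MuSC and 58 in fresh MuSC.

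The other probe sets of the members give a second reading of the same RNA, not a replicate. For the members at least 2-fold lower in −OSM MuSC than in fresh MuSC, 10 other probe sets passed the floor on 1 or both arrays, but 9 of them did so in fresh MuSC alone and could only be lower. The 1 above the floor on both arrays, of Sfrp1, was lower, with 83 in −OSM MuSC and 149 in fresh MuSC. For those lower in +OSM MuSC than in fresh MuSC, 7 of 9 passed in fresh MuSC alone, and the 2 above the floor on both arrays were lower, that of Wnt4 with 61 in +OSM MuSC and 295 in fresh MuSC and that of Sfrp1 with 65 in +OSM MuSC and 149 in fresh MuSC. For the members higher in −OSM MuSC, 3 of 5 were above the floor on both arrays, all of Fzd3 and all higher, with 216 in −OSM MuSC and 105 in fresh MuSC for 1, 205 in −OSM MuSC and 49 in fresh MuSC for another, and 113 in −OSM MuSC and 80 in fresh MuSC for the last. Of the rest, 1 of Fzd5 passed in −OSM MuSC alone (64 there and 8 in fresh MuSC). The other, of Wnt9a, passed in fresh MuSC alone and ran the opposite way (7 in −OSM MuSC and 50 in fresh MuSC). That Wnt9a probe set was also opposite for the member higher in +OSM MuSC than in fresh MuSC, with 6 in +OSM MuSC. Over all genes with several probe sets above the floor, the log2 ratios of a pair of probe sets of 1 gene differed by a median of 0.32 in +OSM MuSC over −OSM MuSC and of 0.46 in −OSM MuSC over fresh MuSC (4331 genes each), a spread within the same RNA that does not cover differences between samples.

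**Figure D3:**
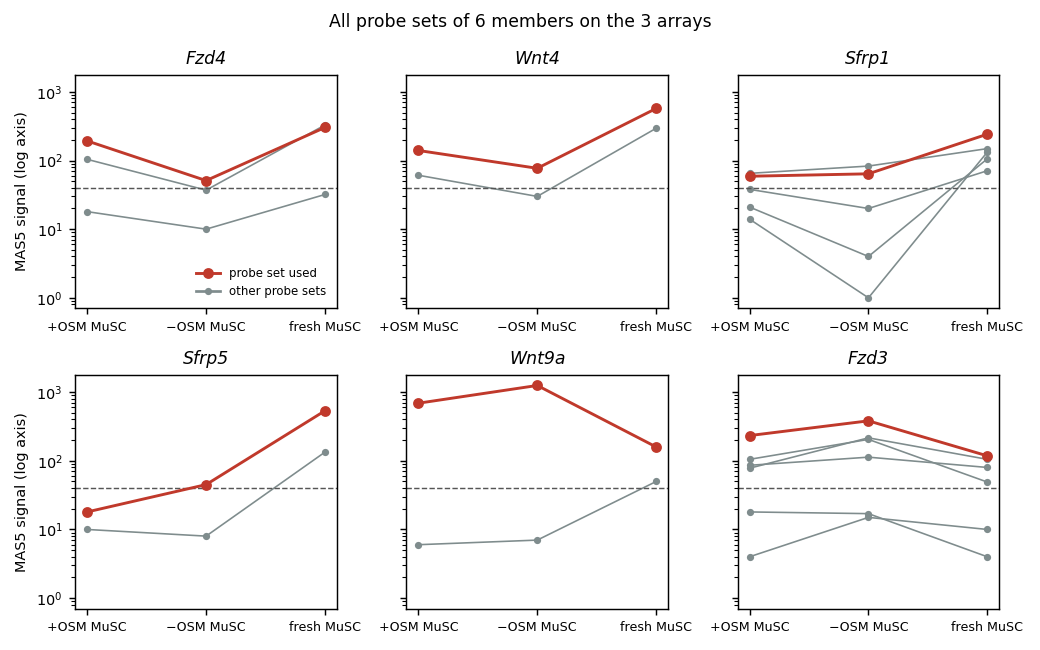
MAS5 signal (log axis) of every probe set of 6 members on the 3 arrays, with the probe set used in red, the others in grey and the floor of 40 dashed. Wnt4, Sfrp1 and Sfrp5 have all their probe sets highest in fresh MuSC, 1 probe set of Fzd4 is under the floor throughout, and the 2 probe sets of Wnt9a run in opposite directions.

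Around the members, 89 other genes of the pathway were listed by role, of which 83 had a probe set of their own. In +OSM MuSC over −OSM MuSC, 8 of 63 measured were at least 2-fold higher and 6 lower, with a median log2 ratio of 0.02. In −OSM MuSC over fresh MuSC, 10 of 72 were higher and 23 lower (median −0.28), and in +OSM MuSC over fresh MuSC 7 of 71 were higher and 20 lower (median −0.26). Beside these stand the shares of all genes given above. With the arrays set to a common median both medians against fresh MuSC turned, to 0.16 for −OSM MuSC and 0.44 for +OSM MuSC, with 18 higher and 14 lower in −OSM MuSC and 19 higher and 9 lower in +OSM MuSC. After quantile normalization they were −0.19 for −OSM MuSC and −0.18 for +OSM MuSC, and the median between the cultures was −0.02. A few genes past 2-fold fall outside the rule by which list genes were named, and are given below because the counts include them, chosen after their values were seen: Ror2, Lgr6, Gpc4, Gpc6, Sost, Sostdc1, Btrc, Tnfrsf19, Daam2 and Celsr2.

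Genes that make Wnt ligands ready for export were higher in culture. Porcn, the acyltransferase that adds the lipid to Wnt proteins, had 473 in +OSM MuSC, 322 in −OSM MuSC and 106 in fresh MuSC, and was 4.46-fold higher in +OSM MuSC and 3.04-fold higher in −OSM MuSC than in fresh MuSC. Wls, the carrier that brings Wnt proteins to the surface, had 1657 in +OSM MuSC, 1367 in −OSM MuSC and 566 in fresh MuSC, and was 2.93-fold higher in +OSM MuSC and 2.42-fold higher in −OSM MuSC than in fresh MuSC. Both passed 2-fold under all 3 scalings. Trabd2b, a membrane protease that inactivates Wnt proteins, went the other way, with 44 in +OSM MuSC, 79 in −OSM MuSC and 216 in fresh MuSC. On this list of 4 measured genes, 2 were higher and 1 lower in either culture than in fresh MuSC, and none differed by 2-fold between the cultures. Of all genes 15% were higher and 20.4% lower in −OSM MuSC than in fresh MuSC, and 13.8% higher and 17.2% lower in +OSM MuSC.

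Of the co-receptors, Ror1, a tyrosine kinase receptor for Wnt5a, had 256 in +OSM MuSC, 143 in −OSM MuSC and 2312 in fresh MuSC, 9.03-fold lower in +OSM MuSC and 16.2-fold lower in −OSM MuSC. Lrp6, the co-receptor of β-catenin signalling, had 288 in +OSM MuSC, 182 in −OSM MuSC and 416 in fresh MuSC, 2.29-fold lower in −OSM MuSC than in fresh MuSC. Lrp4, a receptor of agrin at the neuromuscular junction that also binds Wnt inhibitors, was brightest in −OSM MuSC, with 162 in +OSM MuSC, 362 in −OSM MuSC and 146 in fresh MuSC. Ror2, the relative of Ror1, had 27 in +OSM MuSC, 29 in −OSM MuSC and 92 in fresh MuSC. On that list 0 of 6 genes were higher and 1 lower in +OSM MuSC than in −OSM MuSC, beside 6.07% of all genes higher and 4.39% lower. In −OSM MuSC 1 of 7 was higher and 3 lower than in fresh MuSC, beside 15% of all genes higher and 20.4% lower. With a common median the counts of the list were 1 higher (Ror1) and 0 lower between the cultures, and 2 higher (Kremen1 and Lrp4) and 1 lower (Ror1) in −OSM MuSC than in fresh MuSC, so that Lrp6 and Ror2 there and Lrp4 between the cultures lay within 2-fold. In the R-spondin axis, which controls how many Frizzled receptors stay at the surface, Lgr4, a receptor of R-spondins, had 530 in +OSM MuSC, 342 in −OSM MuSC and 1034 in fresh MuSC. It was 3.02-fold lower in −OSM MuSC and 1.95-fold lower in +OSM MuSC than in fresh MuSC. Of 5 genes measured on its list 1 was higher and 1 lower in −OSM MuSC than in fresh MuSC, beside 15% of all genes higher and 20.4% lower. The higher one of the list was Lgr6, another R-spondin receptor, with 78 in +OSM MuSC, 94 in −OSM MuSC and 19 in fresh MuSC.

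Among the pathway lists, the most genes past 2-fold between the cultures were on that of the other secreted and surface modulators, where 5 of 9 genes measured were at least 2-fold higher in +OSM MuSC than in −OSM MuSC and 1 was lower, beside 6.07% of all genes higher and 4.39% lower, with a median log2 ratio of 1.03 as deposited, 1.16 with a common median and 0.87 after quantile normalization. The lists were chosen with earlier results of these data known, so these counts describe the list and are not a test of it. Of the marker lists, Dcn, Col1a1, Col1a2, Pdgfrb and Kcnj8 (values above) were likewise at least 2-fold higher with OSM. Of 2 tenocyte markers measured, Fmod was higher (482 in +OSM MuSC and 153 in −OSM MuSC). The other, Scx, was 3.14-fold lower (104 in +OSM MuSC and 327 in −OSM MuSC). The part of these markers here was not tested. Igfbp4, an IGF-binding protein that also binds Frizzled and Lrp6, had 3601 in +OSM MuSC, 169 in −OSM MuSC and 1649 in fresh MuSC, 21.3-fold higher with OSM. Sulf1, a sulfatase that trims heparan sulfate and so alters Wnt binding, had 2017 in +OSM MuSC, 112 in −OSM MuSC and 1276 in fresh MuSC, 18-fold higher with OSM. For both, +OSM MuSC was above fresh MuSC and −OSM MuSC was below it, by 9.76-fold for Igfbp4 and 11.4-fold for Sulf1. Cthrc1, a secreted protein that favours planar cell polarity signalling, had 416 in +OSM MuSC, 119 in −OSM MuSC and 55 in fresh MuSC, 3.5-fold higher with OSM. Sulf2, the other sulfatase, had 98 in +OSM MuSC, 51 in −OSM MuSC and 217 in fresh MuSC. The glypicans Gpc4 (994 in +OSM MuSC, 278 in −OSM MuSC and 465 in fresh MuSC) and Gpc6 (221 in +OSM MuSC, 108 in −OSM MuSC and 286 in fresh MuSC) were also at least 2-fold higher with OSM. The lower one was Sost, which encodes the Lrp5 and Lrp6 inhibitor sclerostin, with 24 in +OSM MuSC, 128 in −OSM MuSC and 2 in fresh MuSC.

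On the same list Gpc3, Apcdd1 and Sostdc1 were above the floor in fresh MuSC alone, as Frzb and Dkk3 were. Gpc3, a heparan sulfate proteoglycan at the cell surface, had 12 in +OSM MuSC, 2 in −OSM MuSC and 621 in fresh MuSC, at least 15.5-fold lower in either culture. Apcdd1, a membrane inhibitor of Wnt signalling and itself a target of it, had 25 in +OSM MuSC, 22 in −OSM MuSC and 331 in fresh MuSC, at least 8.27-fold lower in either culture. Sostdc1, an inhibitor related to Sost, had 9 in +OSM MuSC, 16 in −OSM MuSC and 101 in fresh MuSC. With the arrays set to a common median Sostdc1 was within 2-fold of fresh MuSC in both cultures and Apcdd1, for which another probe set was then the brightest, in −OSM MuSC. Over the list 2 of 12 genes were higher and 7 lower in −OSM MuSC than in fresh MuSC. Beside this stood 15% of all genes higher and 20.4% lower. Among the 7, Gpc3, Apcdd1 and Sostdc1 could only count as lower. Sost, above the floor in −OSM MuSC alone, could only count as higher. In log2 units the list had a median of −1.37 as deposited, −0.93 with a common median and −1.13 after quantile normalization. Over all genes these medians were −0.14, 0.37 and 0.10.

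**Figure D4:**
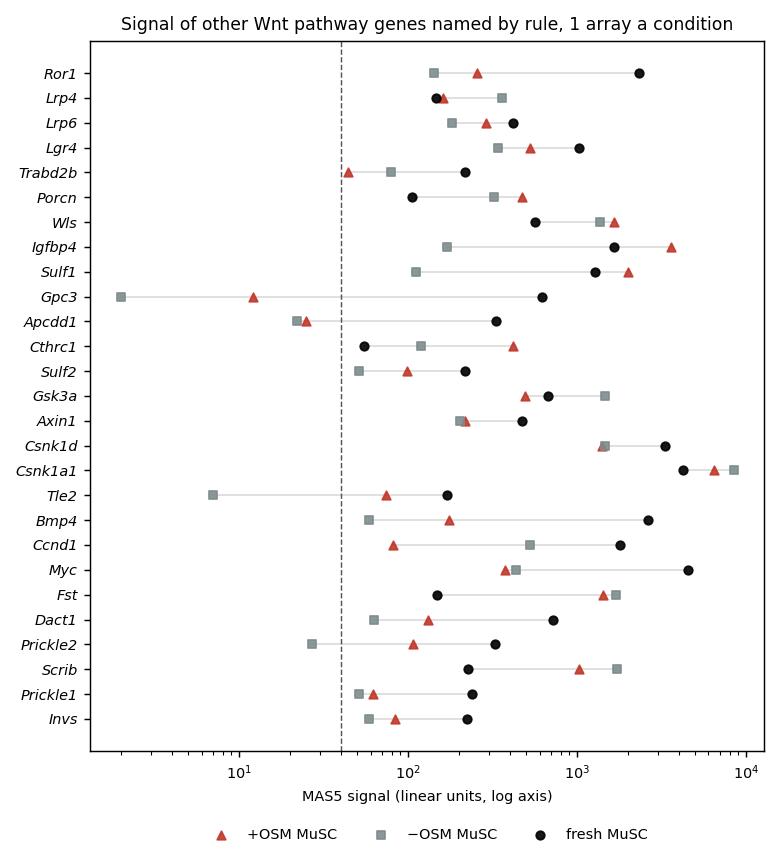
MAS5 signal (linear units, log axis) of the genes named from the pathway lists, with 1 point for each array and the floor of 40 dashed. Igfbp4 and Sulf1 have −OSM MuSC far to the left of both other conditions, and Porcn and Wls have fresh MuSC to the left of both cultures.

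Of 11 destruction complex and transducer genes measured between the cultures, none was at least 2-fold higher in +OSM MuSC (6.07% of all genes) and 1 was lower (4.39% of all genes). This was Gsk3a, a kinase that marks β-catenin for degradation, with 495 in +OSM MuSC, 1464 in −OSM MuSC and 673 in fresh MuSC. Against fresh MuSC, 2 of 14 were higher and 3 lower in −OSM MuSC, beside 15% of all genes higher and 20.4% lower. The median of this list there was −0.10 as deposited and turned to 0.53 with a common median and 0.15 after quantile normalization. The scaffold Axin1 was lower (216 in +OSM MuSC, 202 in −OSM MuSC and 473 in fresh MuSC), as were the kinase Csnk1d (1413 in +OSM MuSC, 1456 in −OSM MuSC and 3301 in fresh MuSC) and Btrc, which recruits β-catenin to its ubiquitin ligase (38 in +OSM MuSC, 31 in −OSM MuSC and 99 in fresh MuSC). None of these 3 stayed past 2-fold with a common median. Gsk3a was 2.18-fold higher, and the kinase Csnk1a1 was 2-fold higher, in −OSM MuSC than in fresh MuSC (6470 in +OSM MuSC, 8471 in −OSM MuSC and 4235 in fresh MuSC). As deposited, none of 11 nuclear factors differed by 2-fold between the cultures. In −OSM MuSC 1 of 11 was lower than in fresh MuSC, beside 20.4% of all genes, and none was higher. This was the co-repressor Tle2 (74 in +OSM MuSC, 7 in −OSM MuSC and 169 in fresh MuSC), which could only be lower in −OSM MuSC as its signal there was under the floor. Bcl9 and Tle2 were at least 2-fold higher in +OSM MuSC than in −OSM MuSC with a common median, and Tle2 after quantile normalization. Under each of these other scalings 2 nuclear factors were higher in −OSM MuSC than in fresh MuSC.

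Among genes known as targets or feedback regulators of the pathway, 1 of 13 was higher and 5 were lower in −OSM MuSC than in fresh MuSC, and 1 of 12 was higher and 6 were lower in +OSM MuSC. Of all genes 15% were higher and 20.4% lower in −OSM MuSC than in fresh MuSC, and 13.8% higher and 17.2% lower in +OSM MuSC. The median log2 ratio of the list in −OSM MuSC over fresh MuSC was −0.64 as deposited, −0.18 with a common median and −0.20 after quantile normalization. For +OSM MuSC over fresh MuSC it was −0.96, −0.33 and −0.81 in the same order. Between the cultures 2 of 12 on this list were higher and 2 lower with OSM, beside 6.07% of all genes higher and 4.39% lower. Bmp4, a BMP ligand, had 174 in +OSM MuSC, 59 in −OSM MuSC and 2622 in fresh MuSC, 15.1-fold lower in +OSM MuSC and 44.4-fold lower in −OSM MuSC. Myc, the growth regulator, had 375 in +OSM MuSC, 435 in −OSM MuSC and 4550 in fresh MuSC. Ccnd1, the G1 cyclin D1, had 81 in +OSM MuSC, 528 in −OSM MuSC and 1798 in fresh MuSC, and was 6.52-fold lower in +OSM MuSC than in −OSM MuSC. Tnfrsf19, a receptor of the TNF family, was the other one lower with OSM, with 246 in +OSM MuSC, 673 in −OSM MuSC and 531 in fresh MuSC. These genes also answer to many other signals. Dact1, an inhibitor of Dishevelled, had 131 in +OSM MuSC, 63 in −OSM MuSC and 720 in fresh MuSC, 2.08-fold higher in +OSM MuSC than in −OSM MuSC. Fst, the BMP and activin antagonist follistatin, was the target higher in culture, with 1418 in +OSM MuSC, 1707 in −OSM MuSC and 148 in fresh MuSC. Axin2, the usual readout of β-catenin signalling, also fell outside the rule for named genes and was chosen after its values were seen. It had 35 in +OSM MuSC, 45 in −OSM MuSC and 70 in fresh MuSC, and all its ratios as deposited were within 2-fold.

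In the planar cell polarity branch, 1 of 10 genes was higher and 1 lower in +OSM MuSC than in −OSM MuSC, beside 6.07% of all genes higher and 4.39% lower. In −OSM MuSC 1 of 10 was higher and 3 lower than in fresh MuSC, beside 15% of all genes higher and 20.4% lower. Prickle2, a cytoplasmic polarity protein, had 107 in +OSM MuSC, 27 in −OSM MuSC and 327 in fresh MuSC, at least 2.68-fold higher in +OSM MuSC than in −OSM MuSC. Scrib, a scaffold of cell polarity, was brightest in −OSM MuSC, with 1030 in +OSM MuSC, 1727 in −OSM MuSC and 227 in fresh MuSC. Prickle1 had 62 in +OSM MuSC, 51 in −OSM MuSC and 239 in fresh MuSC, and Invs, the ciliary protein inversin, 84 in +OSM MuSC, 59 in −OSM MuSC and 222 in fresh MuSC. Both were at least 2-fold lower in either culture than in fresh MuSC. Daam2, a formin that acts downstream of Dishevelled, was the gene lower with OSM, with 21 in +OSM MuSC, 92 in −OSM MuSC and 47 in fresh MuSC. Between the cultures Prickle2 passed the floor in +OSM MuSC alone and Daam2 in −OSM MuSC alone, so each could only differ towards that array. In +OSM MuSC 1 of 11 was higher and 4 were lower than in fresh MuSC, the fourth being Celsr2, a polarity cadherin, with 44 in +OSM MuSC, 52 in −OSM MuSC and 89 in fresh MuSC. Of all genes 13.8% were higher and 17.2% lower there. The median of this list in −OSM MuSC over fresh MuSC was −0.46 as deposited, 0.07 with a common median and −0.01 after quantile normalization.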

How the data were processed

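RNA of FACS-sorted MuSC was amplified with 3′ IVT Express reagents and measured on 3 arrays, 1 a condition. The authors processed the array files with MAS5 (version not given in the sources used here) and deposited signal intensity on a linear scale, scaled to a common trimmed mean. Conditions were taken from the labels, which give 10% FBS for the cultures.

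Of 45037 probe sets, 64 controls were left out. The annotation gave 34945 probe sets 1 gene, 932 several genes and 9160 none. The gene value was that of its probe set of highest mean signal, and the 40 members had 78 probe sets. No member symbol changed against the RefSeq gene table (0 of 40). Log2 ratios were taken after raising signals to a floor of 40, and genes were counted at 2-fold. Percentiles are among all genes measured in that comparison. The calculations used pandas 2.3.3, numpy 2.4.6 and scipy 1.17.1 under Python 3.11.15, and plots were drawn with matplotlib 3.10.9. The steps were tested on simulated data with changes set only in genes well above the floor, so recovery of changes near the floor was not covered.

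The members and lists were chosen with earlier results of these data known. Members above the floor on any array were named, as were genes of the pathway lists past 2-fold and above 4 times the floor, at most 6 a list. Some genes stand on more than 1 list. Kremen2, Tiki1, Tcf7, Wisp1, Wisp2, Prickle3 and Ly6a had no probe set that the annotation gives to them alone and were not analysed here. Alternatives were other scalings, floors, probe set rules and fold thresholds.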

Additional observations from a re-analysis of the deposited data

How the results depend on the processing

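No paired analysis was possible because each condition had 1 array, and no replicate could be left out. With the arrays set to a common median, 0 members were at least 2-fold lower in +OSM MuSC than in −OSM MuSC (2 as reported), 8 were higher in −OSM MuSC than in fresh MuSC (5 as reported) and 4 were higher in +OSM MuSC than in fresh MuSC (1 as reported). The shares of all genes there were 3.27%, 28.3% and 34% in the same order. After quantile normalization 3 members were higher in +OSM MuSC than in fresh MuSC, beside 17.1% of all genes. With the floor at the 75th percentile of all signals (183), 12 members in place of 28 lay above it. There 0 were higher and 0 lower in +OSM MuSC than in −OSM MuSC, 3 were higher and 2 lower (9 as reported) in −OSM MuSC than in fresh MuSC, and 2 were lower (7 as reported) in +OSM MuSC than in fresh MuSC. Of all genes measured at that floor, 4.28% were higher and 3.15% lower in +OSM MuSC than in −OSM MuSC. Against fresh MuSC, 16.5% were higher and 16% lower in −OSM MuSC, and 12.5% were lower in +OSM MuSC. Fzd4 had a log2 ratio of 0.08 at that floor for +OSM MuSC over −OSM MuSC, as its signal of 193 in +OSM MuSC was close to it.

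With the mean log2 signal of all probe sets of a gene, 1 member was higher in +OSM MuSC than in −OSM MuSC, 3 were higher in −OSM MuSC than in fresh MuSC and 2 higher in +OSM MuSC than in fresh MuSC. The shares of all genes there were 5.12%, 13% and 11.4% in the same order. The log2 ratio of Wnt9a in +OSM MuSC over fresh MuSC was −0.47 with that mean, the reverse of the reported direction, since its second probe set ran the other way. At 1.5-fold, 8 of 23 members were lower in +OSM MuSC than in −OSM MuSC, beside 13.1% of all genes. In −OSM MuSC 8 of 27 were higher than in fresh MuSC, beside 24.3% of all genes. In +OSM MuSC 4 of 26 were higher and 12 lower than in fresh MuSC, beside 23.8% of all genes higher and 29.6% lower. At 3-fold, 1 member was higher and 0 lower in +OSM MuSC than in −OSM MuSC, beside 2.26% of all genes higher and 1.21% lower. In −OSM MuSC 2 were higher than in fresh MuSC, beside 7.42% of all genes.

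Over the 6 alternatives of scaling, floor and probe set, the members that stayed past 2-fold in the reported direction wherever they were measured were Sfrp4 for +OSM MuSC over −OSM MuSC (1 of 4), Wnt4, Fzd3, Sfrp5 and Dkk3 for −OSM MuSC over fresh MuSC (4 of 14), and Wnt4, Sfrp5 and Dkk3 for +OSM MuSC over fresh MuSC (3 of 8). Sfrp4 between the cultures and Dkk3 were not measured with the floor at 183. Sfrp4 has 1 probe set, and its signals of 131 in +OSM MuSC and 58 in −OSM MuSC lay above each array's own median. Only the other scalings could thus change its ratio, to log2 values of 1.35 with a common median and 1.06 after quantile normalization. Dkk3 in either culture and Sfrp5 in +OSM MuSC entered through fresh MuSC alone, so they could fall within 2-fold but not turn higher. Signals near the floor limit what the dim ligands can show.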
